A study of Mus musculus with 21 samples.

Results

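H3K4me1 was compared between formative mouse embryonic stem cells that lack both MLL3 and MLL4 and formative cells that lack MLL3 but keep a floxed MLL4. For each of 186824 regions the difference was the log2 level of the double knockout (MLL3KO_MLL4KO, here DKO) minus that of the floxed line (MLL3KO_MLL4fl), as deposited and after centring on its median. The comparison rests on 4 of the 21 samples of the series, 2 libraries per line. All were collected 63 h after LIF and 2i were withdrawn from naive cells, and MLL3 is missing from both lines, so that the lines differ, per the labels, in MLL4. The sources used here do not state the parent line, the deletion step or the number of clones.

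The series profiled chromatin by CUT&RUN, in which an antibody guides a nuclease to its target and the released fragments are sequenced. It also holds naive cells of both lines, and naive and formative cells of wild type and of dCD, a line with CD alleles of both enzymes (MLL3CD_MLL4CD). The labels give 2 different catalogue numbers for the H3K4me1 antibody, and 1 of them is known as that of an antibody to H3K27ac. Which was used was not resolved, so every level below is H3K4me1 only as far as the label holds. The 2 libraries of a group share 1 column of values, so no spread between replicates could be computed and no difference carries a test. Sizes are reported instead, and differences that small numbers of reads could produce are not told apart from others.

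H3K4me1 marks enhancers, active or poised, and the flanks of promoters. The methyltransferases MLL3 (gene Kmt2c) and MLL4 (gene Kmt2d) place most of it at enhancers, whereas SET1 and MLL1/2 complexes act mainly at promoters rich in CpG. When naive pluripotent cells leave LIF and 2i they pass into a formative state, in which many enhancers are newly marked before the embryo's lineages are specified.

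Across all regions the DKO was slightly lower than the floxed line. The median difference was −0.13, with quartiles of −0.73 and 0.41. At a size rule of 2-fold, 31273 regions were lower in the DKO (16.7% of all regions) and 12096 were higher (6.47%), so that 72.1% of the regions past the rule were lower. The 2 directions came closer together with scaling. After centring on the median difference, 25187 regions were lower (13.5%) and 17162 higher (9.19%), a lower share of 59.5%. With each line centred on its own median level it was 51.3%, and with all groups brought to the same distribution it was 54.8%. Whether the mark as a whole was lower in the DKO therefore cannot be read from these columns, while the order of regions from lowest to highest does not depend on a shift. A region held a median of 35.0 normalized reads in the floxed line and 30.7 in the DKO. These values are converted back from the deposited levels, so library depth and amount of mark cannot be told apart in them.

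The difference followed the position of a region relative to genes. Intergenic regions, 80941 in number, had a median of −0.32, and 22.3% of them were 2-fold lower. Introns had a median of −0.06. Exon regions had a median of 0.43, regions annotated as Promoter-TSS 0.37 and those in 5'UTR 0.45. Among the 6492 exon regions 17.6% were 2-fold higher and 4.05% lower, and the 5592 of them more than 1 kb from a start site still had a median of 0.41. The 10671 regions within 1 kb of a start site had a median of 0.40, with 3.25% lower and 7.34% higher. Their median reads were 63.9 in the floxed line and 83.0 in the DKO.

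With distance from the nearest start site the median went down at every step. It was 0.31 between 1 and 2.5 kb, 0.02 up to 5 kb, −0.12 between 10 and 25 kb, −0.28 between 50 and 100 kb and −0.83 beyond 250 kb. Of the 9328 regions beyond 250 kb, 44.2% were 2-fold lower and 5.95% higher. Base composition went with the difference in the same way. Regions without a CpG in their central 300 bases had a median of −0.64 and were 2-fold lower in 35.9% of cases. Those with 17 or more CpGs had a median of 0.60, and 2 of these 3932 regions (0.0509%) were 2-fold lower. More than 1 kb from a start site the corresponding medians were −0.65 and 0.68, so the gradient was present away from promoters too. Gene density and distance are related measures. Among the 5002 regions with no protein-coding start within 500 kb, 48.6% were 2-fold lower (median −0.96), against 9.56% (median 0.02) of those with 21 or more.

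**Figure D1:**
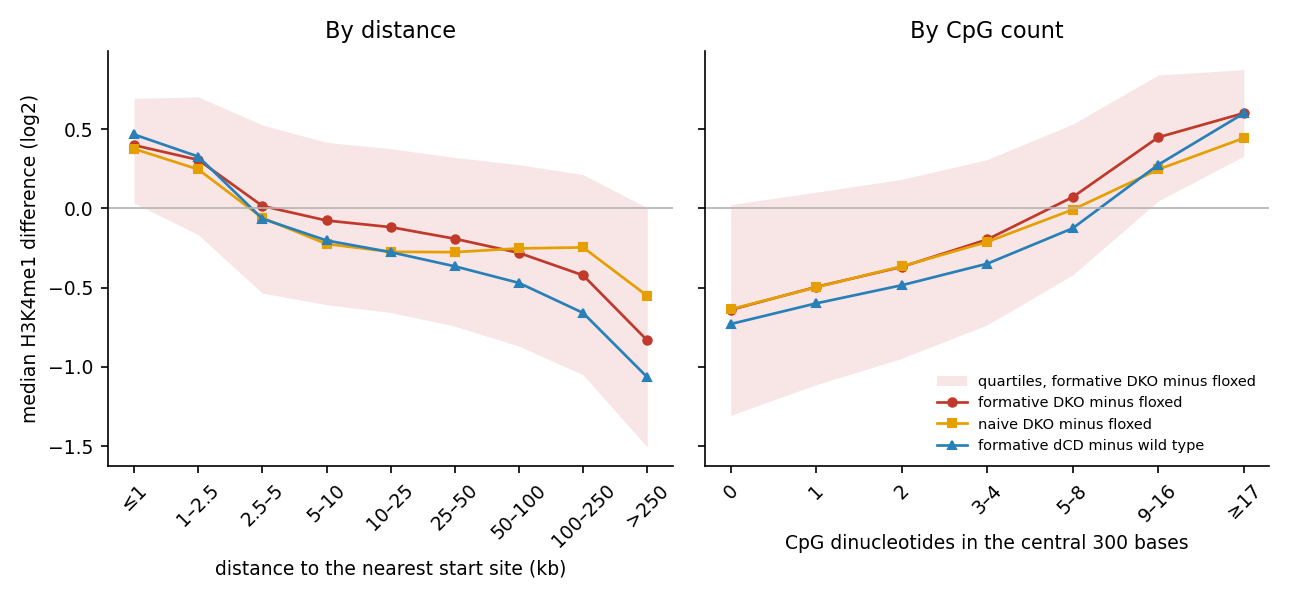
Median H3K4me1 difference (log2, y axis) of regions by distance to the nearest start site (left) and by CpG count in the central 300 bases (right). Lines give the formative DKO minus floxed difference with its quartiles shaded, and 2 comparisons made from other libraries; the formative DKO line goes from 0.40 to −0.83 with distance and from −0.64 to 0.60 with CpG count.

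The clearest contrast between classes lay in the regions that wild-type cells gain during the transition. By the authors' deposited table, which compares formative with naive wild-type cells at an FDR under 0.05, 18339 regions gained and 19643 lost the mark, while 85437 were stable (FDR above 0.2 and log2 fold under 0.5 in size). None of the wild-type libraries behind these classes enters the DKO minus floxed difference. In the gained class the median was −1.08, with quartiles of −1.55 and −0.59. Of its regions 54.7% were 2-fold lower in the DKO and 0.125% higher. Median reads there were 58.7 in the floxed line and 25.7 in the DKO. The stable class had a median of −0.071, with 12.0% lower and 5.55% higher, and the lost class had a median of 0.25, with 2.15% lower and 12.4% higher. After centring the medians of the 3 classes in the order gained, stable and lost were −0.95, 0.059 and 0.38, so that the stable class changed sign.

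**Figure D2:**
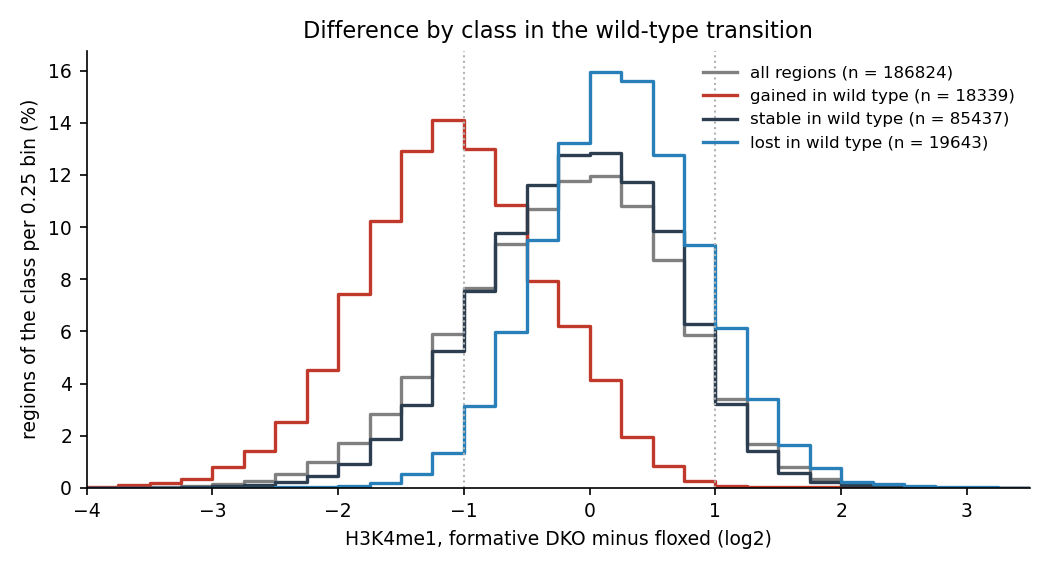
Distribution of the DKO minus floxed difference (log2, x axis) over regions gained, stable or lost in the wild-type transition and over all regions, as a percentage of each class per bin (y axis). Dotted lines mark 2-fold; the gained class is centred at −1.08 and the lost class at 0.25.

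The contrast was also present within ranges of CpG content. Among gained regions more than 1 kb from a start site, the median went from −1.38 with 0 or 1 CpG to −0.66 with 5 or more. Among stable regions of the same kind it went from −0.46 to 0.15, so that within each CpG range the gained class was lower. The same held by gene density. Gained regions with at most 2 protein-coding starts within 500 kb had a median of −1.36 and those with 11 or more −0.90, against −0.40 and −0.01 in the stable class. Gained regions within 1 kb of a start site were 722 in number and had a median of −0.21.

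In naive cells the same 2 lines did not show this contrast. Gained regions, which by definition carry less of the mark in naive wild-type cells, had a median of −0.10 in the naive DKO minus floxed difference. Lost regions, which carry more of the mark in naive wild-type cells, had a median of −0.62 in it. How far a low naive level limits the naive difference of the gained class was not tested. In formative dCD minus wild type the gained class had a median of −1.23, but that comparison shares its wild-type libraries with the definition of the class and is no separate measure of it.

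The regions with the lowest differences, among those with at least 32 normalized reads in the higher line, held few CpGs. Of the 15 lowest, 10 were intergenic and 5 intronic, 13 were gained in wild type, and the central 300 bases held between 0 and 5 CpGs with a median of 1. Their reads ranged from 34.4 to 73.0 in the floxed line and from 0.88 to 4.69 in the DKO, so the 2 ranges did not overlap, as the choice of the extremes fixes. Regions carry the name of the closest annotated gene, and no link to that gene was measured. The lowest of all was intergenic, 830 kb from Pla2g4a, a cytosolic phospholipase A2 gene (chr1:149092410-149093371), with 34.4 reads in the floxed line, 23.0 in wild type and 0.88 in the DKO (−5.02). The region near 4933404K13Rik (chr10:43807878-43808964, intergenic) had 37.9 and 1.23 reads (−4.70). An intron of Frmd4a, a FERM domain scaffold gene (chr2:4384978-4385706), had 34.5 and 1.46 reads (−4.46). The intergenic region near 4933405O20Rik (chr7:50883772-50885591) had 65.97 and 2.88 reads (−4.23). Regions near Tafa2, which encodes a small secreted protein of the nervous system, in Nrxn3, a presynaptic adhesion gene, and in Grm5, a metabotropic glutamate receptor gene, followed with −3.81, −3.71 and −3.66. All 15 were also below 0 in formative dCD minus wild type, and 13 of 15 in naive DKO minus floxed. The medians over all regions were themselves below 0 there, at −0.29 and −0.18. The gained class also shares its wild-type libraries with the dCD comparison, which is therefore no separate measure of the 13 gained regions.

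The 15 highest regions looked different. Of these, 5 were intergenic, 6 intronic and 4 exonic, none was gained in wild type and 4 were lost, and the central 300 bases held between 0 and 23 CpGs with a median of 9. Reads ranged from 3.11 to 16.4 in the floxed line and from 32.7 to 111 in the DKO. At the intergenic region 45.8 kb from Zfp991, a zinc finger gene (chr4:146224072-146225127), there were 3.11 reads in the floxed line, 12.8 in wild type and 44.4 in the DKO (3.74). The region near Lmod2, a leiomodin gene of muscle (chr6:24606654-24607639, intergenic), had 3.69 and 32.7 reads (3.08), and its naive difference was as large (3.89). The region near 2410018L13Rik (chr12:23312079-23313554) had 8.11 and 66.5 reads (2.97), and that near Hacd1, a dehydratase gene of fatty acid elongation (chr2:13949744-13950967), had 4.65 and 37.5 (2.93). The former lies in the chromosome 12 stretch from 18 to 24 Mb described below. Mapping of repeated sequence was not tested in any of the 15 highest regions. Further down, an exon of Lipt1, a lipoyltransferase gene, had 7.996 and 61.0 reads (2.83), and an exon of Lgr4, an R-spondin receptor gene, nearest to the start of Ccdc34, had 16.4 and 111 (2.71). In wild type all 15 lay between the 2 lines, which the choice of the extremes favours.

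The central 200 bases of the 4 lowest and the 4 highest regions show the difference in CpG content, read on the plus strand of GRCm38 from RefSeq, with every CG in capitals. The 4 lowest, at chr1:149092791-149092990, chr10:43808322-43808521, chr2:4385243-4385442 and chr7:50884582-50884781, held 1, 1, 2 and 1 CG in these windows:
Pla2g4a: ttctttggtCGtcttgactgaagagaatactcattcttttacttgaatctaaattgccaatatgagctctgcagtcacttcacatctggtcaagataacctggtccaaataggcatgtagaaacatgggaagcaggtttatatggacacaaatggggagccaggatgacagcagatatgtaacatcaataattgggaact
4933404K13Rik: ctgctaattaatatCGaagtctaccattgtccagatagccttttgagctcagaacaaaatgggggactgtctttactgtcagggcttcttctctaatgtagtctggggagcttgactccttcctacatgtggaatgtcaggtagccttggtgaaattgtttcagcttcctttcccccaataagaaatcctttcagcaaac
Frmd4a: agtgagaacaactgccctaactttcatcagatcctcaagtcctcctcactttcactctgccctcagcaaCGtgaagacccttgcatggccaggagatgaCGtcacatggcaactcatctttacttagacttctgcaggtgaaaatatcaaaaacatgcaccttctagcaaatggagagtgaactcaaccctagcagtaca
4933405O20Rik: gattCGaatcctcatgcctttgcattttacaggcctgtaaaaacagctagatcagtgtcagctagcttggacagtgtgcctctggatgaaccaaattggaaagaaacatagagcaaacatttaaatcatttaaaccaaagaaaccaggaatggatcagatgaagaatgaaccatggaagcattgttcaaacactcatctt

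The 4 highest, at chr4:146224500-146224699, chr6:24607047-24607246, chr12:23312717-23312916 and chr2:13950256-13950455, held 18, 6, 6 and 9:
Zfp991: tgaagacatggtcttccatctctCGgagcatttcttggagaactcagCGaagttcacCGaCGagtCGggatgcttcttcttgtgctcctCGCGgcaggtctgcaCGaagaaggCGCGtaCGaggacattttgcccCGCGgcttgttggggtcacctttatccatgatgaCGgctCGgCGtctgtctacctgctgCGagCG
Lmod2: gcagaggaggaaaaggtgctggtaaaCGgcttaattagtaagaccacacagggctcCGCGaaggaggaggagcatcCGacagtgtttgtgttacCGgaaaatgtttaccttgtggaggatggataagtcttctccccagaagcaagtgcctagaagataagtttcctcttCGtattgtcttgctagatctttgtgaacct
2410018L13Rik: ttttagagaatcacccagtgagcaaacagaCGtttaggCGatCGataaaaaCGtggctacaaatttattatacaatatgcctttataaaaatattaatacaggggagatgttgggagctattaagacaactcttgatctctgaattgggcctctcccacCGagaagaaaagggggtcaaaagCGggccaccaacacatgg
Hacd1: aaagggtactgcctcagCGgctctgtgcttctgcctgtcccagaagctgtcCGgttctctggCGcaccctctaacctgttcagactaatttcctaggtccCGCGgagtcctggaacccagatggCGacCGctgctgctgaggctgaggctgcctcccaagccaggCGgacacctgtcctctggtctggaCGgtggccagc

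**Figure D3:**
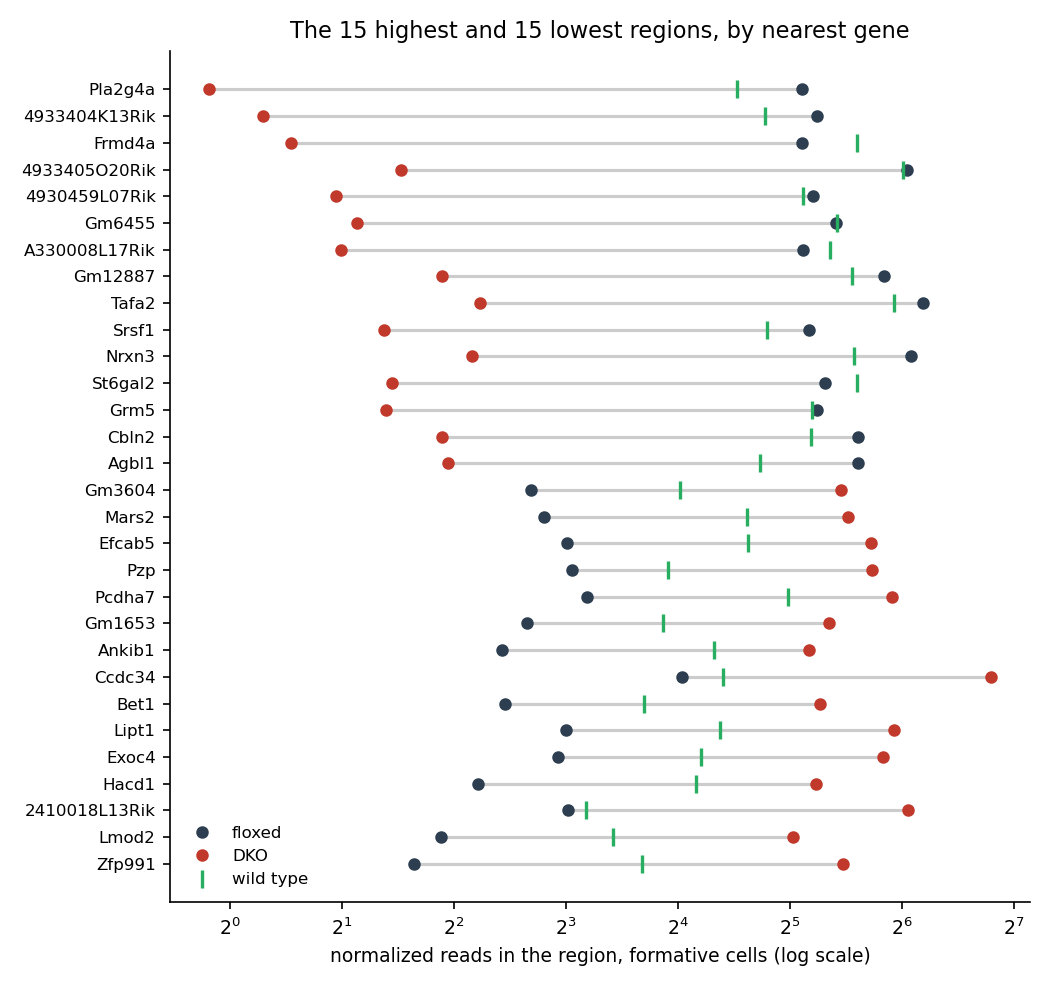
Normalized reads (x axis, log scale) in formative floxed, DKO and wild-type cells at the 15 highest and 15 lowest regions, named by nearest gene (y axis). In the lowest regions the DKO lies at 4.69 reads or fewer, and in the highest the floxed line lies at 16.4 or fewer with wild type between the lines.

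Within 1 kb of a start site the extremes were smaller. The lowest were at 4930503F20Rik (34.3 reads in the floxed line and 4.50 in the DKO, −2.86), Vmn1r11, a vomeronasal receptor gene (43.9 and 5.46, −2.78), and Gbp10, a guanylate-binding protein gene of the interferon response (42.5 and 6.73, −2.60). They were followed by Mlana, a melanosome gene (−2.38), and Unc93a2 (−2.28). The highest were at Prdx6b (15.6 and 94.9 reads, 2.55), Kcnv2, a potassium channel subunit gene (8.12 and 47.6, 2.43), Gm5 (2.30), Pcdha8 (2.26) and Xlr3a (2.24). Within the gained class, where 0.125% were 2-fold higher, the highest region lay in an intron of Jakmip2 (16.9 and 77.8 reads, 2.15), followed by introns of Grb10, an imprinted adaptor gene (1.98), and Rims2, a presynaptic scaffold gene (1.66). Within the lost class the lowest region was nearest to 1700007P06Rik, in an intron of Spata17 (80.5 and 17.9 reads, −2.08).

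Differences were next averaged over the regions within 50 kb whose nearest gene was the same, which gave 21535 loci with a median of 0.00. At a size rule of 1.5-fold 3052 loci were lower (14.2%) and 2919 higher (13.6%), or 2254 (10.5%) and 4198 (19.5%) after centring. Among the 11008 loci with at least 5 regions Vmn2r26, a vomeronasal receptor gene, was lowest, with −2.23 over 7 regions, of which 6 were 2-fold lower, with 344 reads in the floxed line and 85.1 in the DKO. At Csn3, the kappa-casein gene, all 5 regions were 2-fold lower, with 322 and 102 reads (−2.20). Nrxn3 had −2.11, Fam135b −1.88 and Grm3, a metabotropic glutamate receptor gene, −1.75. At Ctsc, which encodes the protease cathepsin C, 10 of 12 regions were 2-fold lower, with 644 and 217 reads (−1.74).

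The highest locus of this size was Ybey, a mitochondrial RNA processing gene, with 1.55 over 6 regions, of which 5 were 2-fold higher, with 133 reads in the floxed line and 477 in the DKO. Tmem209 followed with 1.40 and all 5 regions 2-fold higher, and Zfp110 with 1.38. Pdcd11, a gene of ribosome assembly, had 1.29. Nup155, a nuclear pore gene, and Ect2, a gene of cytokinesis, had 1.25 and 1.24. Eif3c, a translation initiation factor gene (1.24), had 271 reads in the floxed line and 589 in the DKO. Srp72, a signal recognition particle gene (1.23), had 178 and 369. Of the 12 highest loci 8 have an RNA value in the authors' deposited table. None of them reached a 2-fold change in either direction. Those values compare formative DKO with wild type, not with the floxed line. Among all loci with an RNA value 5.65% had a log2 fold of −1 or lower and 6.97% of 1 or higher. At such shares 8 loci are too few for this count to set them apart.

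The genes of the deleted enzymes are read here for their own chromatin only, since regions near a gene do not check a deletion within it. The Kmt2c locus had −0.21 over 11 regions, none past 2-fold, with 363 reads in the floxed line and 309 in the DKO. The Kmt2d locus had 0.72 over 4 regions, with 412 and 754 reads. All 6 regions inside or nearest to Kmt2d were above 0, from 0.38 to 1.08, and 3 were 2-fold higher. In the authors' deposited table, whose RNA samples lie outside this series, the log2 fold of formative DKO over wild type was −0.91 for Kmt2c and −0.84 for Kmt2d.

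In the list of H3K4 methylation genes, which holds Kmt2c and Kmt2d, 6 of 18 loci were 1.5-fold higher (33.3%, beside 13.6% of all loci), 0 were lower and the other 12 stayed within the rule. The median was 0.33, and Kmt2d was among the 6. Of the others, Kmt2b, which encodes the methyltransferase MLL2, was highest with 1.21, on 159 reads in the floxed line and 411 in the DKO. Kdm5c, a demethylase gene, had 0.95, Ash2l, a core subunit of all MLL complexes, 0.89, Setd1a, a SET1 methyltransferase gene, 0.83, and Paxip1, a subunit gene of the MLL3/4 complexes, 0.77. In the naive comparison the list's median was −0.14.

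Loci of the formative and primed state were lower as a group. Of 26 loci 13 were 1.5-fold lower (50.0%, beside 14.2% of all loci) and 0 higher, with a median of −0.59, and after centring 7 were lower with a median of −0.46. The list was also low in the other comparisons. Its median was −0.48 in naive DKO minus floxed and −0.56 in formative dCD minus wild type, beside −0.11 over all loci in each. Sox3, a SoxB1 transcription factor gene on the X chromosome, was lowest (−2.003), with 139 reads in the floxed line and 32.5 in the DKO within 50 kb. All 10 regions nearest to Sox3 were below 0 and 8 were 2-fold lower. They included 1 at 25.0 kb with 62.5 and 11.2 reads (−2.37) and 1 at 117 kb with 20.3 and 1.52 (−3.52). The X chromosome itself had a median of −0.58. Chromosomes 14 and 17 had −0.39 and −0.36, and the locus values given for this and the other lists include such levels. Sall2, a zinc finger transcription factor gene, had −1.04, Fgf15, a growth factor gene, −0.96, and Grhl2, a transcription factor gene that primes epithelial enhancers, −0.81.

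Pou3f1, which encodes OCT6, had −0.74, with 2429 reads in the floxed line and 1538 in the DKO. All 10 of its regions were below 0, from −1.13 to −0.32, and 9 of them were gained in wild type. Nodal, a TGF-beta ligand gene, had −0.70 and Otx2, a homeobox gene of the formative transition, −0.66. Neither passed after centring, and Otx2 lies on chromosome 14, from whose median it differed by −0.26. At Fgf5, the usual marker of this state, 11 of 13 regions were below 0 and 10 were gained in wild type, but the locus stayed within 1.5-fold (−0.39). Its 2 regions lower by over 2-fold lay 34.8 and 36.6 kb from the start site and had 26.8 and 84.7 reads in the floxed line against 11.4 and 31.2 in the DKO. The largest difference at the locus went the other way, in a region annotated as 3'UTR with 16.01 and 51.6 reads (1.67). The region reaching the start site had 277 and 249 reads (−0.14). Of the 22 loci of this list with a value in the authors' deposited table, 6 had an RNA log2 fold of −1 or lower. They included Sox3 (−2.33), Wnt8a (−1.98) and Nodal (−1.77), and 1 locus had 1 or higher (Spry4, 1.43). Among all loci with an RNA value the shares were 5.65% at −1 or lower and 6.97% at 1 or higher.

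**Figure D4:**
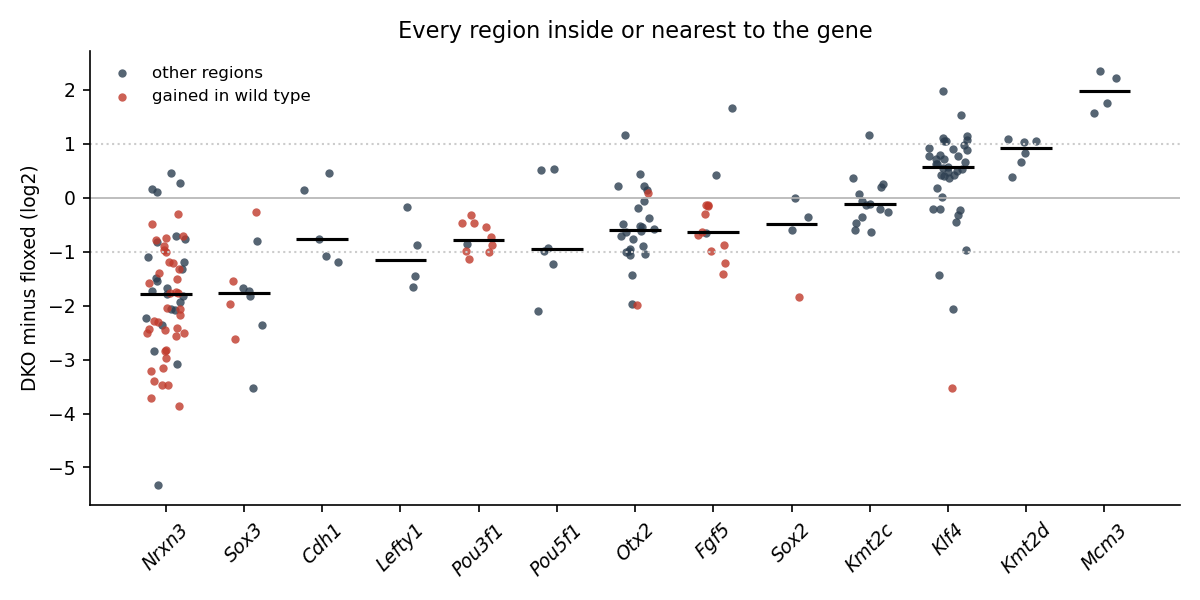
DKO minus floxed difference (log2, y axis) of every region inside or nearest to 13 genes (x axis), with the median as a bar and regions gained in wild type in red. Dotted lines mark 2-fold; 48 of 62 regions of Nrxn3 and 8 of 10 of Sox3 lie below the lower line, and all 4 of Mcm3 lie above the upper one.

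Naive pluripotency loci had a median of −0.07. Of 22 loci 5 were lower (22.7%, beside 14.2% of all loci) and 2 higher (9.09%, beside 13.6%), or 4 and 3 after centring. The lower ones were Fgf4, an autocrine growth factor gene (−1.02, with 1102 and 702 reads), Socs3, a feedback inhibitor gene of LIF signalling (−0.93), Tbx3 (−0.83), Klf5 (−0.77) and Tdh (−0.68). The higher ones were Klf4 and Stat3, both of the LIF pathway, at 0.66 each. The naive comparison of the same lines gave this list a median of −0.63. Around Klf4 the regions differed in direction. Within 50 kb none was 2-fold lower and 3 were higher, whereas the gained region 518 kb away had 24.5 reads in the floxed line and 2.04 in the DKO (−3.53).

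Core pluripotency loci had a median of −0.32, with 3 of 12 lower (25%, beside 14.2% of all loci) and 0 higher (beside 13.6%). The lower ones were Sall4 (−0.74), Sox2 (−0.70) and Pou5f1 (−0.70). After centring only Sall4 passed the rule. At Pou5f1, which encodes OCT4, the 4 regions annotated as intergenic had 25.8, 96.9, 27.1 and 450 reads in the floxed line and 12.9, 40.6, 5.88 and 224 in the DKO. The 2 intronic regions went the other way, with 23.5 and 84.7 reads against 34.1 and 121. At Sox2 the region 4.67 kb from the start site had 348 and 347 reads, and the region 29.4 kb away, gained in wild type, had 107 and 28.6 (−1.84). Nanog stayed within 1.5-fold (−0.54). The naive comparison of the same lines gave the core list a median of −0.47.

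Among 35 loci of FGF, WNT, Nodal and BMP signalling 9 were lower (25.7%, beside 14.2% of all loci) and 0 higher (beside 13.6%). The median was −0.31. After centring 5 passed the rule and the median was −0.18. The Nodal antagonist genes Lefty1 (−1.04) and Lefty2 (−0.81) were among the 9 lower loci. So were Sp5, a WNT target gene (−1.03), Fzd7, a WNT receptor gene (−0.99), Spry2, an inhibitor gene of FGF signalling (−0.74), the BMP target genes Id2 and Id3 (−0.68 and −0.63), Bmp4 (−0.62) and Fgfr1 (−0.59), of which Id2, Id3, Bmp4 and Fgfr1 did not pass after centring. At Lefty1 the region reaching the start site had 320 and 284 reads (−0.17), and the 3 regions from 3.17 to 10.6 kb away had 44.7, 27.9 and 233 reads in the floxed line against 16.2, 8.59 and 120 in the DKO.

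The neural, streak and mesoderm, endoderm and trophoblast lists had medians between −0.36 and −0.24, while their shares of lower loci lay on both sides of the 14.2% of all loci. Of 20 neural loci 2 were lower (10.0%), Pax6 (−1.06) and Pax3 (−0.60). Of 18 streak and mesoderm loci 3 were lower (16.7%), Cdx1 (−0.83), T, the brachyury gene (−0.76), and Eomes (−0.60). Pax3 and Eomes did not pass after centring. Among 14 endoderm loci Foxa2 alone was lower (7.14%, −0.94), with 7 of its 13 regions past 2-fold. The germ line list had a median of −0.04. Of its 12 loci 3 were lower (25%) and 2 higher (16.7%, beside 13.6% of all loci), or 0 and 3 after centring. Of 15 trophoblast loci 6 were lower (40.0%) and 0 higher, led by Ascl2 and Gata3 (−0.74 each), and after centring 2 passed the rule. In the epithelial list 6 of 24 were lower (25.0%) and 1 higher. Cdh1, the E-cadherin gene, had −0.97 with 2303 reads in the floxed line and 1121 in the DKO, Zeb2, a repressor gene of it, had −0.99, and Vim, the vimentin gene, had 0.80. Of 11 fibroblast loci, listed as markers of feeder cells, 4 were lower (36.4%; Col3a1, Fap, Col1a2 and Dcn, from −0.97 to −0.80) and 0 higher. Whether such cells were present was not tested.

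Genes of synaptic adhesion and axon guidance, many of them very long, had a median of −0.33. Of 25 loci 8 were lower (32%, beside 14.2% of all loci) and 1 higher (4%, beside 13.6%). Dcc, a netrin receptor gene, had −1.23, Cntn4 −1.11, Lrrtm4 −1.07 and the guidance cue gene Slit2 −1.06, while the neuroligin gene Nlgn1 had 0.68. Nrxn3 was the lowest. Of 62 regions inside or nearest to it 48 were 2-fold lower and 0 higher, beside 16.7% and 6.47% of all regions. The reads over all 62 summed to 3416 in the floxed line and 1014 in the DKO. Of its 38 regions gained in wild type 31 were 2-fold lower, beside 54.7% of all gained regions. The intronic region at chr12:88818544-88822094 had 146 and 14.04 reads (−3.16), and the region at chr12:88867254-88869519 had 52.7 and 3.78 (−3.48). A region annotated as Promoter-TSS, 0.26 kb from a start site within the gene, had 80.2 and 89.6 reads (0.16).

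**Figure D5:**
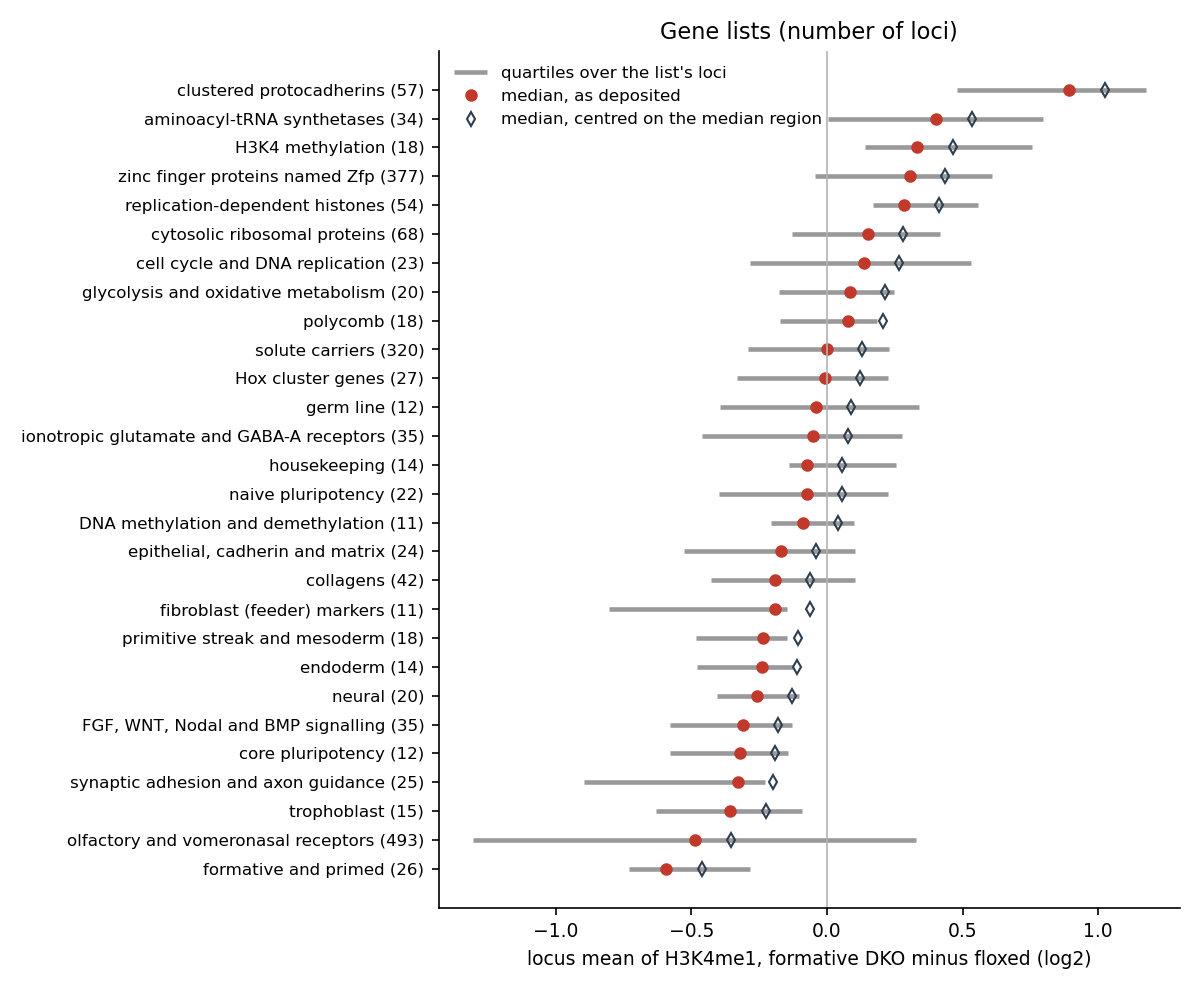
Median and quartiles of the locus differences (log2, x axis) for 28 gene lists with the number of loci (y axis), as deposited and centred on the median region. Formative and primed loci lie lowest (−0.59) and clustered protocadherins highest (0.89).

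Gene families chosen by name spread over the whole range. Of the 57 clustered protocadherin loci, neuronal cell-identity genes in a tandem array, 40 were 1.5-fold higher (70.2%, beside 13.6% of all loci) and 3 lower, with a median of 0.89. Pcdha7 had 9.08 reads in the floxed line and 60.2 in the DKO (2.65), and Pcdha8 had 9.47 and 46.0 (2.26). The lower ones were Pcdhgc5 (−1.14), Pcdhga12 (−0.93) and Pcdhac2 (−0.60). As 45 of the 57 loci rest on 1 region, and neighbouring genes are similar in sequence, the values of single members are uncertain. Aminoacyl-tRNA synthetase genes had 14 of 34 loci higher (41.2%) and 1 lower (2.94%), with Rars2 (1.37), Iars (1.14) and Wars (1.13) in front. At Iars, the isoleucyl-tRNA synthetase gene, 9 regions held 224 and 475 reads. Genes named Zfp had 99 of 377 higher (26.3%) and 18 lower (4.77%), and replication-dependent histone genes 13 of 54 higher (24.1%) and 1 lower (1.85%), beside 13.6% and 14.2% of all loci. Cytosolic ribosomal protein genes had 10 of 68 higher (14.7%), a share close to the 13.6% of all loci. Only 1 was lower (1.47%), a share under the 14.2% of all loci.

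Olfactory and vomeronasal receptor genes, in large clusters that are silent outside sensory neurons, had 225 of 493 loci lower (45.6%) and 89 higher (18.1%). Their quartiles of −1.31 and 0.33 were the widest of all lists, and 285 of the loci rest on 1 region. Vmn2r25 had 165 and 19.6 reads (−2.91) and Vmn2r4 102 and 17.4 (−2.88), while Olfr474 had 9.15 and 45.1 (2.23). Reads that fit several similar genes may be placed among them in either line, and how they were handled is not given in the sources used here. In the cell cycle list 5 of 23 loci were higher (21.7%, beside 13.6% of all loci) and 2 lower (8.70%, beside 14.2%). Mcm3, a subunit gene of the replicative helicase, led them with 1.97, and its 4 regions, all lost in wild type, had 59.2, 15.02, 16.99 and 50.3 reads in the floxed line and 203, 51.6, 90.1 and 246 in the DKO. The other helicase genes Mcm2, Mcm4 and Mcm6 had 0.81, 0.72 and 0.59, and Ccnd3, a cyclin gene, had −0.76.

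The pattern was set beside 2 comparisons that share no library with it, each centred on its own median. Of the 25187 regions lower in the formative DKO, 53.7% were also 2-fold lower in formative dCD minus wild type, where 12.1% of all regions were lower, and these made up 59.6% of the latter. In naive DKO minus floxed, where 11.2% of all regions were lower, the shares were 34.5% and 41.5%. Of the 17162 regions higher in the formative DKO, 33.6% were higher in dCD (7.71% of all) and 23.4% in the naive DKO (7.39% of all). Opposite calls were made for 36 of the lower and 67 of the higher regions in dCD, and for 638 and 251 in the naive DKO. In all 3 comparisons 5281 regions were lower and 1441 higher. Across the 186824 regions Pearson's r was 0.73 with dCD minus wild type and 0.49 with the naive DKO. Regions are not independent and share their base composition between comparisons, so these are descriptions.

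Values of other assays were taken from the authors' deposited table, where both compare formative DKO with wild type in samples outside this series. For H3K27ac, a mark of active enhancers and promoters, the authors' deposited table gave a median log2 fold of −0.65 (quartiles −1.67 and 0.29) in the regions 2-fold lower after centring. It was 0.13 in the regions 2-fold higher and −0.16 in the rest. For RNA of the nearest gene, the authors' deposited table had values for 10849 loci. Of the 990 lower loci 16.2% had a log2 fold of −1 or lower and 7.27% of 1 or higher, beside 5.65% and 6.97% of all loci. Of the 1441 higher loci 1.94% and 4.79% did. The medians were −0.08, 0.08 and 0.07 in lower, higher and all loci, so that most lower loci had no RNA fold of that size.

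Motifs of 12 factor families were counted in the central 300 bases on both strands, by exact letters. The octamer ATGCAAAT, bound by OCT factors, was present in 3.81% of the regions 2-fold lower after centring, 1.32% of those higher and 2.18% of all regions. Among regions more than 1 kb from a start site with 0 or 1 CpG the shares were 4.39%, 1.87% and 3.01%, so the order held there. The TEAD letters ACATTCCA were present in 2.35%, 1.21% and 1.67%, and the TCF/LEF letters ATCAAAG in 6.54%, 4.34% and 5.13%. The SOX letters ACAATGG were present in 5.54%, 4.10% and 4.62%, AP-1 (TGANTCA) in 10.2%, 7.84% and 9.05%, and ZIC (CAGCAGG) in 12.3%, 9.95% and 11.3%. In the regions with 0 or 1 CpG the share in lower regions was also above that in all regions for these 5 motifs. OTX (TAATCC) was present in 11.7%, 10.2% and 11%, but in the regions with 0 or 1 CpG the order turned, with 12.1%, 14.3% and 12.4%. The reverse order was found for the ETS letters CCGGAAG, with 0.742%, 3.02% and 1.86%, and for NRF1, with 0.00794%, 0.192% and 0.0573%. GRHL (AACCNGTT) was present in 2.53%, 3.46% and 2.48%, and in 2.64%, 2.33% and 2.46% of the regions with 0 or 1 CpG, where its direction turned. ETS and NRF1 letters contain CpG, and in the same regions with 0 or 1 CpG the ETS shares were 0.236%, 0.311% and 0.236%. KLF (GGGNGTGG) and ESRRB (TCAAGGTCA) were less frequent in both called groups than in all regions, with 9.48% and 9.25% against 11.2%, and 0.881% and 0.839% against 1.03%. A match is a description and not a bound site.

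The octamer is shown in 2 regions that were gained in wild type and lower in the DKO, the one 29.4 kb from Sox2 and one in an intron of Nrxn3 with 57.0 and 5.19 reads (−3.40). The windows of 60 bases on the plus strand of GRCm38 from RefSeq, at chr3:34679329-34679388 and chr12:89847604-89847663, have the octamer or its reverse complement in capitals:
Sox2: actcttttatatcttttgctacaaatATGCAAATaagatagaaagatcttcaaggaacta
Nrxn3: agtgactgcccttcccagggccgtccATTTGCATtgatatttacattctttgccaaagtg

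Chromosomes differed in their level. The medians were −0.58 on X, −0.39 on 14 and −0.36 on 17, and lay between −0.17 and 0.02 on the other autosomes and on Y. On X 35.4% of the regions were 2-fold lower. With each region centred on its chromosome's median the counts were 24684 lower and 17020 higher, close to those after centring on the median of all regions. Copy number was not tested.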

How the data were processed

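H3K4me1 CUT&RUN values of formative DKO and floxed cells were taken from 1 table of 186826 regions, of which 186824 have levels. The submitters' processing notes name the build mm10 and the tools Bowtie2, Trim Galore, DiffBind, SEACR and deepTools. The sources used here give no versions, no role for each tool and no word on scaling to spike-in DNA. Per the file headers each deposited level is a log2 value, and each group has 1 column that merges its 2 libraries. The floxed line was read from the columns whose names hold CKO, an abbreviation that its sample descriptions use. For wild type the authors deposited a log2 fold and an FDR (an adjusted p-value) per region. H3K27ac and RNA folds, deposited as log2 values by the authors, were measured in samples outside this series, and their direction was read from the column names. Another 14 columns of other measures were not used.

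In the wild-type columns a level was taken as the log2 of a constant times reads over squared width, with 1 added. The offset was 22.2 in naive and in formative wild type. It was applied to the other lines, where mean reads to check it were not at hand. Levels were thereby turned into normalized reads and compared only within a region, as DKO minus floxed. Regions were counted at 2-fold. Loci, the mean over regions within 50 kb of the start of their nearest gene, were counted at 1.5-fold. Sequence features came from the RefSeq GRCm38.p6 genome, whose chromosome lengths hold all regions, and gene density from GENCODE M21. For 271 regions the gene name reads as a date, and these enter no locus.

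Named regions were the 15 lowest and 15 highest with at least 32 reads, 1 per gene, and 5 each way among promoter, gained and lost regions. Named loci were the 12 lowest and highest with at least 5 regions, list members past 1.5-fold (up to 4 each way for the longer lists), and Kmt2c and Kmt2d. Genes described region by region, and further members, were chosen after their values were seen. The members and lists were chosen with earlier results of these data known. Python 3.11.15, numpy 2.4.6, pandas 2.3.3 and scipy 1.17.1 were used.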

Additional observations from a re-analysis of the deposited data

How the results depend on the processing

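No paired analysis was possible because the 2 libraries of a group share 1 column, and no library could be left out for the same reason. Centring on the median difference, and the log2 ratio of reads with 1 added for loci, classes and lists, were added after seeing the data. Counts were called the same within 1.5 times, and class medians when they stayed inside the 95% interval of the main median over regions, which measures no variation between libraries. Lower regions, 31273 as reported, numbered 20660 with at least 32 reads, 56782 at 1.5-fold and 10225 at 3-fold. Higher regions, 12096 as reported, numbered 20834 with each group on its own median, 7468 with at least 32 reads, 33308 at 1.5-fold and 1963 at 3-fold. Lower loci, 3052 as reported, numbered 1885 with each group on its own median and 1886 with quantile scaling, and higher loci, 2919 as reported, 5122 and 4572. The other counts of regions and loci stayed within 1.5 times.

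Class medians moved with the scaling, by the same amount in every class where it is a constant shift and by unequal amounts under quantile scaling. Centred on the median difference, on each group's median and by quantile scaling they were 0.53, 0.61 and 0.54 in promoter regions, −0.19, −0.12 and −0.13 in intergenic regions, and −0.95, −0.88 and −0.86 in gained regions. They were 0.38, 0.46 and 0.44 in lost regions and 0.059, 0.14 and 0.11 in stable regions, the class that changed sign. With at least 32 reads the medians were 0.42 in promoter, −0.43 in intergenic, 0.27 in lost and −0.061 in stable regions. Promoters drawn at 2.5 kb gave 0.36 and gained regions at an FDR of 0.01 gave −1.20. Of the 28 lists 19 had a median below that of all loci, and 18 or 19 did under the other settings. The lists of DNA methylation genes and of Hox genes lay on either side of all loci depending on the setting, and the other lists stayed on one side. With a median near 31 to 35 normalized reads in these columns, single regions under 32 reads carry large counting error.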

Other observations

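The difference was also summarized along the genome. Base composition and gene density, which go with the difference, were not taken into account in it. In 2043 bins of 1 Mb with at least 20 regions each, the median of the bin medians was −0.16. In 119 bins the median difference was −1 or lower and in 5 it was 1 or higher. The lowest bin lay on chromosome 1 from 115 to 116 Mb, where all 22 regions were 2-fold lower in the DKO and the median difference was −2.77. Median reads there were 26.6 in the floxed line and 4.49 in the DKO, and the bin had −1.09 in naive DKO minus floxed and −1.61 in formative dCD minus wild type. On chromosome 6 from 111 to 112 Mb 25 of 28 regions were lower (−1.86), with −1.74 and −1.73 in the other comparisons.

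The 5 highest bins all lay on chromosome 12, from 18 to 21 Mb and from 22 to 24 Mb. The bin from 21 to 22 Mb was not among them. The 302 regions of the whole stretch from 18 to 24 Mb had a median of 0.88. Of them 135 were 2-fold higher in the formative DKO, beside 6.47% of all regions. In naive cells the same lines differed in the other direction, with a median of −0.49 and 87 regions 2-fold lower. Of all regions 11.2% were 2-fold lower in naive cells after centring. Median reads were 35.6 and 23.2 in naive floxed and DKO cells, and 13.3 and 22.6 in the formative ones. Formative dCD minus wild type had 0.29. The stretch was picked after its values were seen, and mapping of repeated sequence and copy number were not tested in it.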
